A study of Yarrowia lipolytica with 3 samples.

Results

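The comparison described here set a strain of Yarrowia lipolytica that overexpresses MHY1 against the wild type, with 1 RNA-seq library on each side. Of 6448 gene identifiers in each library, 6035 were compared, namely those at 1 RPKM or more in at least 1 of the 3 libraries of the study. RPKM is a read count scaled to the length of the gene and to the number of reads in the library. The other 413 identifiers stayed below that level, and 56 of them were at 0 everywhere. The weakest gene kept reached 1.001 RPKM in its highest library and the strongest gene left out reached 0.9995.

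All strains carried the source label PO1a, a laboratory strain of this yeast. The wild type had its own MHY1, the overexpression strain was an MHY1-overexpressing mutant of it, and an mhy1Δ mutant, here called the deletion, was the third strain. The sources used here give neither the promoter that drives the extra MHY1 nor whether the native copy is still in place. Each strain gave 1 library and was grown as a 50 ml culture in YNDC7 medium with added uracil at 30 °C, to an OD600 of 0.8. The RPKM values implied 47622181 reads for wild type, 75306802 for overexpression and 59527000 for the deletion, of which 95.8% to 96.0% lay in the listed genes. These totals were chosen so that the listed reads did not exceed them. With 1 library per strain there was no replicate check and no test. Sizes of difference are given, with 95% intervals that cover counting error only.

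Yarrowia lipolytica is a dimorphic yeast that grows as round cells or as hyphae, and it is known for its use and storage of fats. MHY1 encodes a zinc-finger transcription factor of the C2H2 type, known as a regulator required for the change from yeast cells to hyphae. The Mhy1 protein was reported to bind stress response elements, short DNA motifs best known from Saccharomyces cerevisiae. The deposited files pair no identifier with a gene name, and 0 of the identifiers matched the reference gene table. Genes other than MHY1 are therefore described by their place, level and change, and only the extreme pair in each direction is printed by identifier. The letter in an identifier, A to F, names the chromosome.

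The extra MHY1 was visible in the library. MHY1, taken as YALI0B21582g from general knowledge of this gene, was at 467 RPKM in wild type, 1159 RPKM in overexpression and 0 in the deletion. These values rest on 19064, 74881 and 0 reads. The gene was thus highest in the overexpression library, intermediate in wild type and without a read in the deletion, where a count of 0 allows up to 3 reads or 0.0587 RPKM. Its overexpression level was 2.48 times the wild-type level (interval 2.44 to 2.52), and the log2 ratio, formed as for every gene after adding 1 RPKM, was 1.31. That ratio was 1.14 with median-of-ratios scaling, 1.21 with upper-quartile scaling and 1.15 after centring on the median of all genes. The interval does not cover the choice of scaling. By level MHY1 was the gene ranked 383 in wild type and 191 in overexpression. By size of increase MHY1 ranked 188 among the genes compared. Among the 4 genes at 5 RPKM or more in wild type and at 0 in the deletion it was by far the strongest, the next being at 61.6 RPKM.

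Most genes differed little between the overexpression and wild-type libraries. Of the 6035 genes, 5525 were within 2-fold on the log2 scale with 1 RPKM added. Past that line 361 genes (5.98%) were higher in overexpression and 149 (2.47%) were lower. At 4-fold the shares were 0.845% (51 genes) and 0.646% (39 genes). The central 50% of log2 ratios, between the percentiles 25 and 75, ran from −0.09 to 0.45, and the extremes were 6.43 and −6.23. The median of all log2 ratios was 0.16, with 4025 genes above 0 and 2010 below. Relative to that median, 251 genes were higher by 2-fold or more and 188 lower, which changed the share of higher genes among those past 2-fold from 70.8% to 57.2%. Median-of-ratios scaling gave 58.1%. For 323 of the higher and 140 of the lower genes, the whole counting interval was past 2-fold. In RNA from a whole culture, fewer cells of a type and less RNA per cell cannot be told apart.

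**Figure D1:**
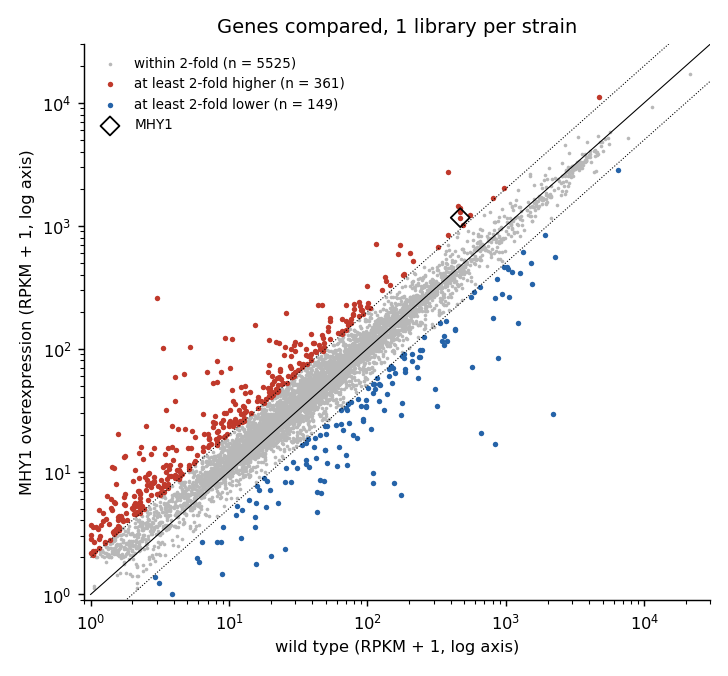
RPKM + 1 of each gene compared in wild type (horizontal, log axis) and MHY1 overexpression (vertical, log axis), 1 library per strain; the solid line marks equal levels, the dotted lines 2-fold, and the diamond MHY1. The 361 higher genes (red) lie above the upper dotted line and the 149 lower genes (blue) below the lower one.

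The level at which the higher and lower genes lay depended on the library used to rank them. The median level of the higher genes was 7.22 RPKM in wild type and 23.8 RPKM in overexpression. In wild type 205 of them (56.8%) were below 10 RPKM, against 19.8% of all genes compared, and 24 (6.65%) were at 100 RPKM or more, against 24.0%. The median of the lower genes was 96.5 RPKM in wild type and 28.3 RPKM in overexpression, with 10 genes (6.71%) below 10 RPKM and 72 (48.3%) at 100 RPKM or more in wild type. Both groups were formed with the wild-type value, which by itself draws low values into the higher group and high values into the lower one. By the overexpression value instead, 123 of the higher genes (34.1%) and 42 of the lower genes (28.2%) were below 10 RPKM, against 16.6% of all genes, and 21.1% and 19.5% were at 100 RPKM or more, against 25.6%. By that value the higher and lower genes were thus much alike. The overexpression value formed the groups as well, and draws high values into the higher group and low values into the lower one. The likeness carries that limit. By the mean of both libraries, 40.4% of the higher and 12.8% of the lower genes were below 10 RPKM, against 17.5% of all, and 14.4% and 36.9% were at 100 RPKM or more, against 25.1%.

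All genes were also placed in bands of wild-type level. The median log2 ratio was 0.74 among 187 genes below 1 RPKM, 0.18 among 2491 genes from 10 to 50 RPKM, 0.02 among 1096 genes from 100 to 500 RPKM and −0.13 among 217 genes at 1000 RPKM or more. Banding by the mean of both libraries, which favours neither, gave 0.60, 0.18, 0.06 and −0.11 for the same 4 bands (92, 2493, 1157 and 213 genes). Banding by the overexpression value gave −0.47 (34 genes), 0.17, 0.10 and −0.09, so the sign of the weakest band depended on the library used. The filter contributes at the weak end, since a gene below 1 RPKM in wild type was kept only if another library reached that level. In all, 175 genes were below 1 RPKM in wild type and at or above it in overexpression, and 22 the reverse. Steps that cross a wider range were rare. From below 1 to 10 RPKM or more there were 3 genes, and 1 gene made the opposite step.

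**Figure D2:**
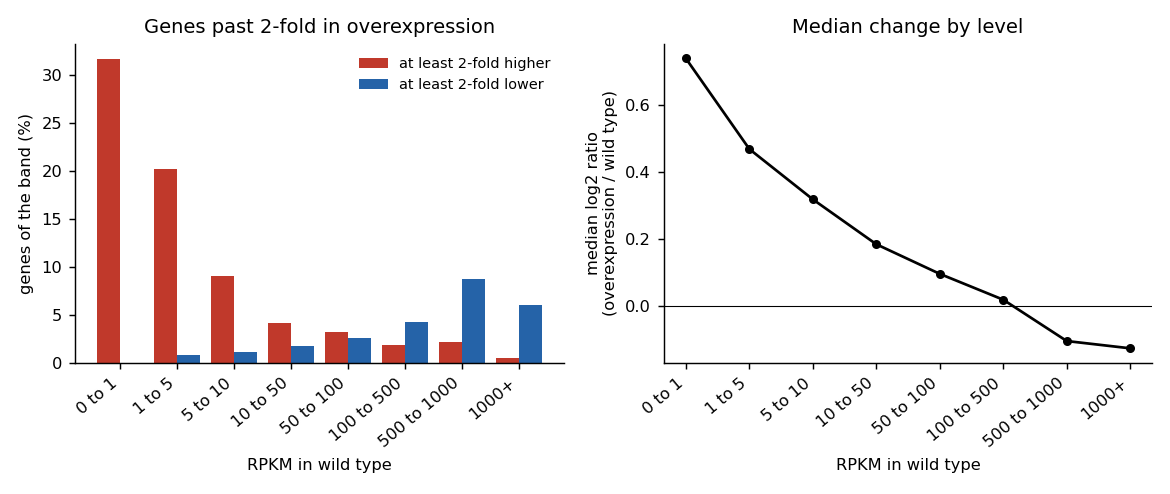
Left, percentage of the genes in each band of wild-type RPKM that were at least 2-fold higher (red) or lower (blue) in MHY1 overexpression; right, median log2 ratio per band. By wild-type level, which also forms the ratio, higher genes fall from 31.6% of the weakest band to 0.461% of the strongest. Lower genes reach 8.7% from 500 to 1000 RPKM. In bands of the mean of both libraries (not drawn) the weakest band has 12.0% higher genes. In bands of the overexpression value it has 0% higher and 20.6% lower.

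The most abundant transcripts were slightly lower in overexpression. Of the 100 genes highest in wild type, all at 2522 RPKM or more, 81 had a log2 ratio below 0, with a median of −0.11. Only 2 of them passed 2-fold, 1 in each direction. Under median-of-ratios scaling 93 were below 0 and under upper-quartile scaling 92. When the 100 genes highest in overexpression were taken instead, 73 were below 0, and 92 genes were in both groups. The strongest gene of both libraries went from 21440 to 17200 RPKM, and was at 21926 RPKM in the deletion.

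Set against the whole library, the genes past 2-fold were a small share of expression. The 361 higher genes held 1.7% of the summed RPKM in wild type and 4.68% in overexpression, and the 149 lower genes held 4.44% and 1.45%. The sum of the higher genes thus gained 29973 RPKM, and that of the lower genes dropped by 31167 RPKM. The 5525 genes within 2-fold dropped by 16267 RPKM, and the sum of the library went from 1033234 to 1015819 RPKM. RPKM is scaled to the reads of the library, so gains and losses are not independent. In the deletion library the 361 higher genes held 0.736% of the summed RPKM and the 149 lower genes 6.2%. Among the lower genes the largest drop was in a gene on chromosome A, from 6450 to 2808 RPKM. The length recovered for it from the RPKM values was only 39 bp. A single gene on chromosome F, singled out after its values were seen, made up 21.7% of the gain. It was at 4683 RPKM in wild type, 628 RPKM in the deletion and 11196 RPKM in overexpression, which moved it from rank 13 to rank 2 by level. Its neighbour in this ranking, also on chromosome F, was at 380 RPKM in wild type, 3.71 RPKM in the deletion and 2727 RPKM in overexpression. That is 7.18-fold above wild type, and the gene moved from rank 465 to rank 83.

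At the upper end of the comparison stood YALI0A00374g, on chromosome A. It had 2.01 RPKM in wild type, 0.450 RPKM in the deletion and 259 RPKM in overexpression, from 82, 23 and 16737 reads. The 2 libraries without extra MHY1 were both near the low end, and overexpression was 129-fold above wild type (104 to 162). The gene is the 12th identifier on chromosome A. Next came YALI0A17666g, also on chromosome A, with 2.32 RPKM in wild type, 0.640 RPKM in the deletion and 99.3 RPKM in overexpression, a 42.8-fold difference from wild type (36.8 to 50.1). Its reads numbered 171, 59 and 11579.

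The 10 highest log2 ratios among the 5116 genes at 10 RPKM or more in wild type or overexpression ran from 3.27 to 6.43. In wild type these 10 genes lay between 0.583 and 14.3 RPKM, with a median of 3.95. In overexpression they lay between 19.4 and 259 RPKM, with a median of 101, so the levels of the 2 libraries did not overlap. The genes were picked by this ratio, so the gap is a description. In the deletion library the same genes lay between 0.0668 and 9.04 RPKM, with a median of 0.643. The gene ranked 6 was near absence in the deletion, with 8.28 RPKM in wild type (595 reads), 0.0668 RPKM in the deletion (6 reads) and 120 RPKM in overexpression (13657 reads). The gene ranked 5, on chromosome F, went another way, being lowest in wild type at 3.70 RPKM, at 9.04 RPKM in the deletion and at 61.0 RPKM in overexpression. Chromosome F, with 1268 of the 6035 genes compared, held 5 of the 10. Chromosomes A (575 genes compared) and E (1387) held 2 each and chromosome D (1048) 1.

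At the lower end stood YALI0C03443g and YALI0C03465g, which follow each other on chromosome C as identifiers 124 and 125. YALI0C03443g was at 2191 RPKM in wild type, 2543 RPKM in the deletion and 28.3 RPKM in overexpression, and so was strong in the first 2 libraries and 77.5-fold lower than wild type in the last (70.8 to 85.0). By level it went from rank 111 to rank 3530. YALI0C03465g was at 826, 895 and 15.9 RPKM in the same order, 52.0-fold lower (47.9 to 56.6). Both were well covered, with 479 and 574 reads even in the overexpression library.

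The 10 lowest log2 ratios, chosen in the same way, ran from −6.23 to −3.29. These genes lay between 19.0 and 2191 RPKM in wild type, between 10.7 and 2543 RPKM in the deletion and between 1.05 and 83.3 RPKM in overexpression. Over all genes compared the median was 34.1 RPKM in wild type and 31.6 RPKM in the deletion. How all those genes split singly was not counted. Among the 10 lowest, as a description, the deletion was above wild type in 6 genes and below it in 4. The gene ranked 3 was among those 4, at 658 RPKM in wild type, 484 RPKM in the deletion and 19.6 RPKM in overexpression. The 3 genes ranked 4 to 6 were at 173, 154 and 108 RPKM in wild type and at 362, 658 and 337 RPKM in the deletion. In overexpression they were at 5.47, 7.11 and 7.07 RPKM, so that the deletion library was the highest and overexpression the lowest for all 3. The gene ranked 9 was nearly level in wild type and the deletion, at 870 and 884 RPKM, and 10.5-fold lower in overexpression at 83.3 RPKM (10.3 to 10.7). Chromosome C, with 858 of the 6035 genes compared, held 4 of the 10, including the neighbours YALI0C03443g and YALI0C03465g. Chromosome D (1048 genes compared) held 3, chromosome E (1387) 2 and chromosome A (575) 1.

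**Figure D3:**
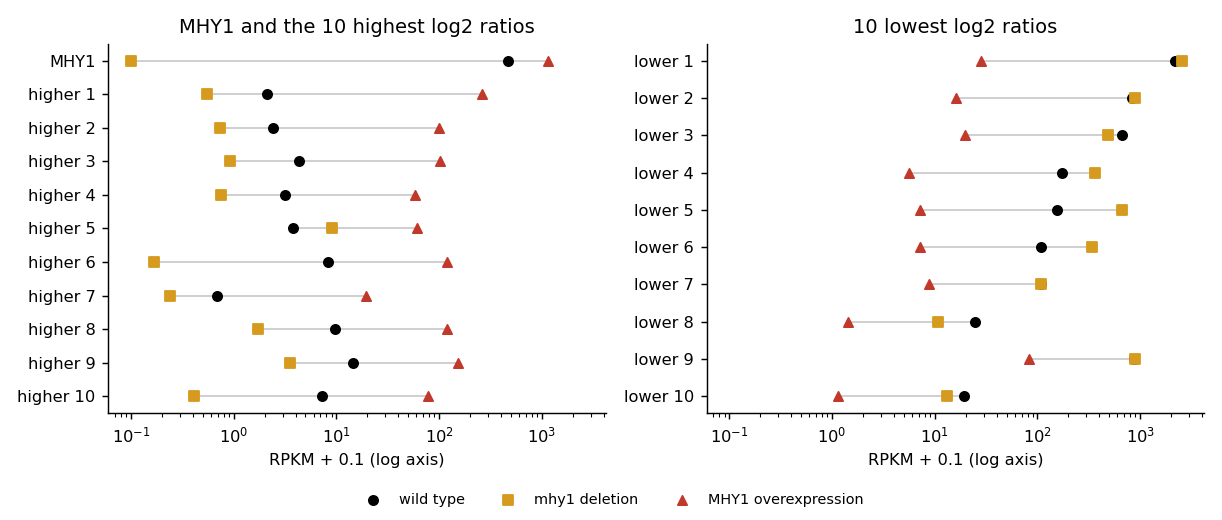
RPKM + 0.1 (log axis) of MHY1 and of the 10 genes with the highest log2 ratio (left) and the 10 with the lowest (right) in wild type (circles), the mhy1 deletion (squares) and MHY1 overexpression (triangles), 1 library each. On the left most deletion values lie left of wild type, except for 1 gene at 9.04 RPKM; on the right overexpression stands alone at the low end.

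The deletion library was set beside these classes, as a description, since both comparisons share the wild-type library. For the 310 genes between 2-fold and 4-fold higher in overexpression, the median level was 8.25 RPKM in wild type, 3.91 RPKM in the deletion and 23.7 RPKM in overexpression. For the 37 genes between 4-fold and 8-fold higher, it was 2.89, 0.720 and 21.1 RPKM, and for the 11 between 8-fold and 16-fold higher 3.70, 0.646 and 61.0 RPKM. The deletion median was thus the lowest of the 3 libraries in each of these classes. The 5525 genes within 2-fold had the same order, at 33.8 RPKM in the deletion, 35.4 RPKM in wild type and 39.6 RPKM in overexpression. The order alone therefore does not set the higher genes apart. Among the lower genes, the 110 between 2-fold and 4-fold had medians of 93.9 RPKM in wild type, 136 RPKM in the deletion and 34.9 RPKM in overexpression. The 25 between 4-fold and 8-fold lower had medians of 78.1, 152 and 17.7 RPKM. The 9 between 8-fold and 16-fold lower had medians of 108, 107 and 7.07 RPKM. The medians of wild type and the deletion were alike, but single genes differed in both directions. The gene ranked 6 among the lowest ratios was at 108 RPKM in wild type and 337 RPKM in the deletion. The gene ranked 8 was at 24.5 and 10.7 RPKM.

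**Figure D4:**
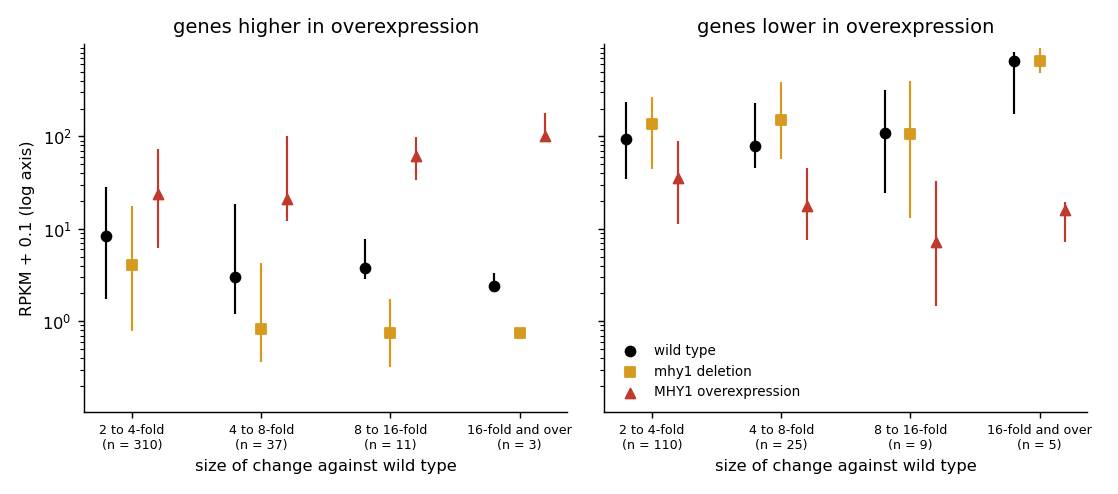
Median (symbol) and quartiles (line) of RPKM + 0.1 (log axis) over genes, by size of change between MHY1 overexpression and wild type, in wild type (circles), the mhy1 deletion (squares) and MHY1 overexpression (triangles). Among higher genes the deletion median is the lowest in every class, 3.91 RPKM in the smallest one. It is also the lowest among genes within 2-fold (not drawn), at 33.8 RPKM beside 35.4 RPKM in wild type. Among lower genes overexpression is the lowest.

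Few genes went from no reads to expression or back. Of all 6448 identifiers, 127 were at 0 in wild type and 77 in overexpression, the library with more reads. A gene at 0 in 1 library was compared only if another library reached 1 RPKM. The filter thus set in part what follows. Of the genes compared, 4 were listed at 0 in wild type and were between 1.18 and 2.66 RPKM in overexpression. The strongest of them, on chromosome C, had 0 reads in wild type, 2 in the deletion and 216 in overexpression. Against the 3 reads that a count of 0 allows in that library, it was at least 45.5-fold higher. The other 3 had 19 to 25 reads in overexpression, and 1 of them had 14 reads in the deletion, so its absence from wild type rests on few reads. In the other direction 1 gene on chromosome A was at 2.87 RPKM in wild type (34 reads), 3.71 RPKM in the deletion (55 reads) and 0 in overexpression, at least 17.9-fold lower.

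By chromosome, the share of higher genes ran from 4.68% on D to 8.39% on C, with 7.83% on A, 6.23% on F, 5.45% on B and 4.83% on E. The share of lower genes ran from 1.33% on B to 3.38% on C, so chromosome C had the highest share in both directions. The median log2 ratio differed little between them, from 0.13 on E to 0.20 on A.

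Neighbouring genes were past 2-fold together in several places. Identifiers are numbered along each chromosome, and 64 of the higher genes (17.7%) stood in 30 runs of 2 or 3 successive identifiers, and 28 of the lower genes (18.8%) in 14 pairs. Of 661 neighbours of higher genes 10.3% were higher themselves, beside 5.98% of all genes, and 1.36% were lower. Of 274 neighbours of lower genes 10.2% were lower, beside 2.47% of all genes, and 3.28% were higher. The share around higher genes moved with the scaling, to 6.11% beside a background of 4.41% under median-of-ratios scaling. Around lower genes it was 10.1% beside 3.18%. Only 51 higher and 39 lower genes passed a 4-fold line. Of the neighbours of these higher genes 0% were higher, beside 0.845% of all genes. Of the neighbours of these lower genes 11.3% were lower, beside 0.646%. The latter lay in the pair of YALI0C03443g and YALI0C03465g and in the 3 pairs of short genes described below. No source used here says if strand was kept in the libraries, so reads of overlapping neighbours may not be told apart.

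Of the 4 runs with 3 genes, the one with the largest changes was on chromosome F at places 451 to 453. Its first gene had 0.583 RPKM in wild type and 19.4 RPKM in overexpression, 33.2-fold higher (20.6 to 57.2). The middle gene of the run was well expressed in all 3 libraries, at 78.8 RPKM in wild type, 88.7 RPKM in the deletion and 231 RPKM in overexpression. The last was weak, at 0.575, 0.378 and 3.30 RPKM in the same order. The run on chromosome C at places 676 to 678 went from 0, 1.11 and 1.23 RPKM in wild type to 2.05, 9.30 and 5.92 RPKM in overexpression, so that all 3 genes stayed weak. In the run on chromosome F at places 761 to 763 the folds were alike, from 2.15 to 2.75. The run on chromosome A at places 255 to 257 joined a moderately expressed gene (21.6 RPKM in wild type, 45.2 RPKM in overexpression) to a nearly silent one (0.0600 RPKM from 3 reads, and 1.66 RPKM).

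Among the lower pairs the first in size was the one of YALI0C03443g and YALI0C03465g described above. On chromosome D the pair at places 16 and 17 was lower by unequal amounts. Its first gene was at 1024 RPKM in wild type, 1172 RPKM in the deletion and 464 RPKM in overexpression, and its second at 108, 337 and 7.07 RPKM. In the pair on chromosome A at places 624 and 625 both genes were highest in the deletion. The first was at 49.2 RPKM in wild type, 187 RPKM in the deletion and 19.2 RPKM in overexpression, and the second at 5.35, 25.7 and 1.68 RPKM.

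Short genes were a minority of the lower genes, but a larger share than among all genes compared. Lengths here are those recovered from the RPKM steps, which for some genes are a fraction of the true length. Of the 149 lower genes 12 had a recovered length under 200 bp (8.05%), beside 1.47% of all genes compared and 1.94% of the higher genes. Among the 14 lower pairs 3 consisted of such genes alone, of 159 to 168 bp, 2 pairs on chromosome C and 1 on chromosome A. These 6 genes lay between 7.87 and 108 RPKM in wild type, between 6.30 and 107 RPKM in the deletion and between 0.474 and 10.4 RPKM in overexpression, 6.77-fold to 18.2-fold lower than wild type. They had 6 to 129 reads each in overexpression. Genes that are near copies of each other could share reads, and no source used here says how such reads were counted. The length limit was set after the values were seen.

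**Figure D5:**
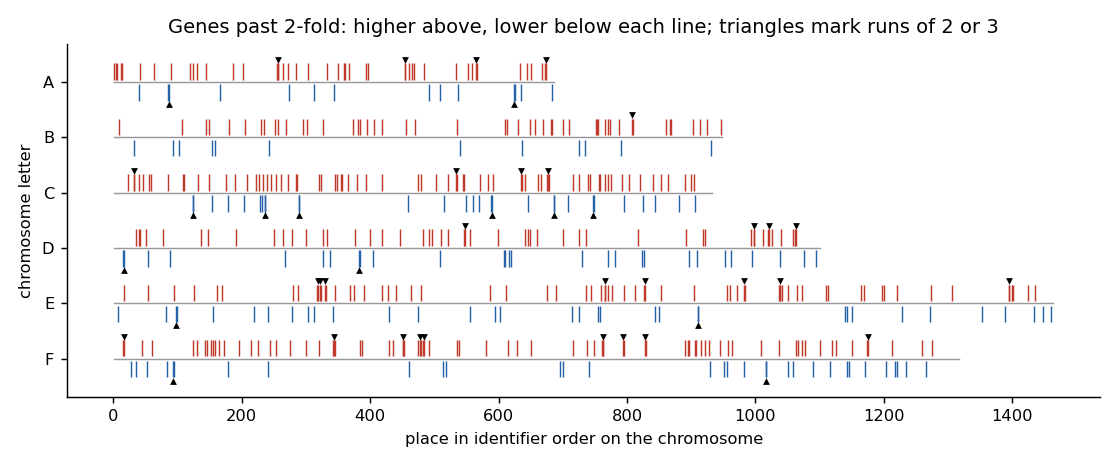
Place in identifier order (horizontal) of the genes at least 2-fold higher (red, above each line) and at least 2-fold lower (blue, below) in MHY1 overexpression on chromosomes A to F; triangles mark the 30 runs of higher and the 14 pairs of lower neighbours. Genes past 2-fold lie along all 6 chromosomes.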

How the data were processed

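Per the labels' protocols, total RNA was extracted with a yeast RNA kit and 1 µg per sample went into a TruSeq library. The deposited values are RPKM, per the file headers. The submitters' processing notes name TopHat2 2.1.1 and Cufflinks 2.2.1, without a role, and a mouse build that cannot hold these identifiers; the yeast build, annotation and counter were not given in the sources used here.

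From the deposited RPKM, whole reads, library totals and gene lengths were recovered from the steps of 1 read, trying lengths in multiples of 3 bp and keeping the shortest that put all 3 libraries within 0.01 of whole reads (100% of values above 0). Among the multiples tried, the smallest totals that the listed reads did not exceed were taken. The share of reads in listed genes depends on that rule. The recovery was also run on simulated libraries built from the recovered lengths and totals. That run cannot show that these are right for the deposited values. Where the length found is only part of the true length, reads are too low and intervals too wide. Ratios were log2((overexpression + 1)/(wild type + 1)), and folds are plain RPKM ratios with exact conditional binomial intervals. Named genes were MHY1, the 10 highest and 10 lowest ratios at 10 RPKM or more, and the longest runs; other genes described were chosen after their values were seen. Other pseudocounts, filters, scalings and fold lines were tried. The comparison and the genes shown were chosen with earlier results of these data known. Pathway lists had been drawn up from recalled identifiers and were not analysed, since no table here pairs identifiers with names. Python 3.11.15, numpy 2.4.6, pandas 2.3.3 and scipy 1.17.1 were used.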

Additional observations from a re-analysis of the deposited data

How the results depend on the processing

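With 1 library per strain, every value can carry culture or library differences, and few reads limit the weak genes. The number of higher genes was 188 with a pseudocount of 5 RPKM and 238 with a filter at 10 RPKM; it was 51 at a 4-fold line and 1013 at 1.5-fold, where lower genes numbered 39 and 339. The count of higher genes in runs, 64 as reported, was 104 with a pseudocount of 0.1 RPKM, 18 with 5 RPKM, 30 with a filter at 10 RPKM, 28 with median-of-ratios scaling, 42 with upper-quartile scaling and 28 after centring on the median. The other counts stayed within 1.5 times of those reported. Among them the lower genes numbered 119 to 192 over the pseudocounts, filters and scalings. The filter leaves ratios unchanged, and a larger pseudocount shrinks all of them. Of the 12 genes in runs of 3, 9 were under 2-fold with a pseudocount of 5 RPKM, 3 with median-of-ratios scaling, 3 after centring and 2 with upper-quartile scaling. Of the 28 genes in lower pairs, 2 were under 2-fold with a pseudocount of 5 RPKM. Medians of pathway lists were not run. No paired analysis was possible because each strain had 1 library, so that no replicate could be left out either.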
